A study of Rattus norvegicus with 10 samples.

Results

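Secreted growth factors, the receptors that read them and the proteins that bind them in the extracellular space were compared between rat pancreatic islets that received an adenovirus for Nkx6.1 and islets that received a control adenovirus. The members were the genes whose array annotation symbol began with Fgf, Igf, Vegf, Pdgf, Tgfa, Tgfb, Bmp, Wnt, Inhb or Fzd, or was Egf, Hgf, Hbegf, Areg, Ereg, Btc or Ctgf, with a value in at least 3 samples of each group. Of 99 symbols that matched, 59 had enough values, out of 9974 genes tested. By role, 35 were ligands, 12 were receptors and 7 were binding proteins. The other 5 (Igf2bp2, Igf2bp3, Fgfr1op2, Tgfb1i1 and Cep43, given as Fgfr1op in the annotation) were taken in by their symbols alone, and their log2 differences ran from -0.82 for Cep43 to 0.115 for Fgfr1op2. Each of the 40 symbols left out had at most 2 values in the bGAL group, and 38 had at least 3 in the Nkx6.1 group. Between 27.3% and 32.5% of all probes lacked a value in bGAL replicates 1, 2, 3 and 5 and in Nkx6.1 replicate 1. Among the 40 were Inhba, Inhbb, Tgfb3, Fgf10, Fgfr2, Igfbp4 and Igfbp5, and these genes were not analysed here. Egf, Fgf2, Pdgfb and Igfbp7 were not among the matched symbols and were not analysed here either.

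The Nkx6.1 group held 5 samples transduced with an adenovirus carrying the hamster gene for Nkx6.1, which is a DNA-binding homeodomain protein of β cells. The bGAL group held 5 samples transduced with an adenovirus carrying β-galactosidase. Both viruses used the CMV promoter, per the labels, which is active in many cell types, and islets without virus were not analysed here. Each sample was a pool of about 200 islets from male Sprague-Dawley rats of about 250 g, given 5E9 virus particles per ml for 18 h and then cultured for 60 h at 8 mM glucose. The labels give 10% serum for both groups. The 5 replicates of a group came from independent islet isolations. Whole islets hold endocrine, endothelial, stromal and immune cells, so fewer cells of a type and less RNA per cell cannot be told apart.

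Growth factors act by binding receptors at the cell surface. FGF, EGF, VEGF, PDGF and IGF ligands bind receptor tyrosine kinases, TGF-β and BMP ligands bind receptor serine kinases that act on Smad proteins, and Wnt ligands bind Frizzled receptors. IGF-binding proteins hold IGF1 and IGF2 outside the cell and set how much of them reaches the receptor. In islets, several of these factors are known as mitogens or survival factors of β cells, and stromal and endothelial cells are known sources of others.

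A value is the log2 ratio between islet RNA and a common rat reference RNA, centred on each probe's median over the 10 samples. The level of a gene, or of a marker of the labelled tissue, therefore cannot be read, only differences between samples. Neither the labels nor the table state which RNA is on top; islet RNA is the likely numerator, and every direction below rests on that. Missing values split the arrays into 2 sets. In array set 1, which held Nkx6.1 replicate 1 and bGAL replicates 1, 2, 3 and 5, between 27.3% and 32.5% of probes lacked a value. In array set 2, which held Nkx6.1 replicates 2 to 5 and bGAL replicate 4, between 0.816% and 9.13% did. Log2 ratios were most spread in Nkx6.1 replicate 2, whose interquartile range was 1.09, where the others had 0.35 to 0.58. The rat Nkx6-1 probe had a log2 difference of -0.56 ± 0.29 (limma estimate ± SE, adjusted p = 0.55). Detection of hamster Nkx6.1 RNA by this rat probe was not tested, so its value cannot be used to check the labels. The number of arrays limits the precision.

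None of the 59 members passed limma at an adjusted p threshold of 0.05 over all genes, where 15 of 9974 genes (0.150%) passed. At an unadjusted p under 0.05, limma called 7 of 59 members, namely Wnt5a and Areg, which were higher in Nkx6.1 islets, and Bmp4, Igfbp1, Vegfb, Igfbp2 and Tgfbr2, which were lower. That share of 11.9% stands beside 9.65% of all genes called in the same way. In 4 members the groups did not overlap. Wnt5a and Igf2 were higher in every Nkx6.1 sample, 2 of 59 members against a background of 1.76% of all genes, and Igfbp1 and Bmp4 were lower in every Nkx6.1 sample with a value, 2 of 59 against a background of 1.88%. The number of separated members was 7 without Nkx6.1 replicate 1 (8.19% of all genes), 6 without bGAL replicate 1 (4.25%) and 4 without Nkx6.1 replicate 2 (5.35%). On simulated data with the real spread, the fit called 24 of 100 genes given a log2 change of 1, and 69 of 100 given a change of 2, so differences of this size can be missed. With array weights, which count the noisier arrays less, 5 of 59 members passed (Areg, Bmp4, Fgfrl1, Igfbp2 and Wnt5a), beside 430 of 9974 genes. With a term for the array set instead, their log2 differences were 1.32, -0.67, -0.25, -0.47 and 1.17, in that order, and no member passed.

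**Figure D1:**
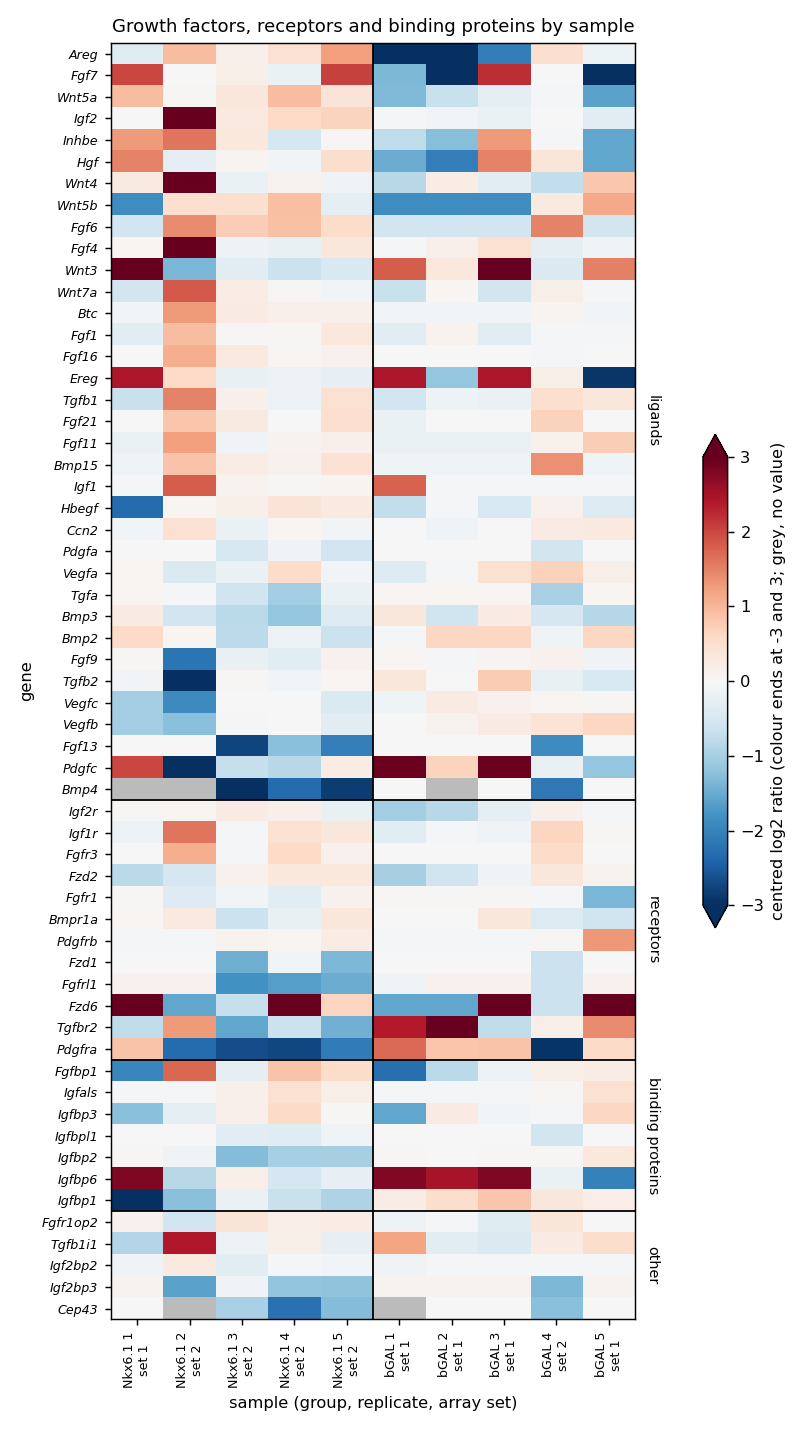
Centred log2 ratio of the 59 members (rows, grouped as ligands, receptors, binding proteins and other, each ordered by difference) in the 5 Nkx6.1 samples and the 5 bGAL samples (columns, with the array set). Colour runs from -3 to 3 and grey marks a missing value; Wnt5a, Igf2, Igfbp1 and Bmp4 separate the groups, while Pdgfra, Fgf13 and Bmp4 are low in bGAL replicate 4 as well.

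The promoters of the 2 members with the smallest p among the separated genes measured in all 10 samples are printed below. Promoters were examined because Nkx6.1 is a DNA-binding protein and because Igfbp1 is a known target of insulin. The 250 bases before each RefSeq gene start are printed 5′ to 3′. Capitals mark TAAT, the core that many homeodomain proteins bind, and CAAAACA, the core of the insulin response element known from the Igfbp1 promoter. Both were searched on both strands, as was the longer homeodomain site TTAATTA, which contains the TAAT core.
Wnt5a promoter (GRCr8, chr16:3703415-3703664, + strand): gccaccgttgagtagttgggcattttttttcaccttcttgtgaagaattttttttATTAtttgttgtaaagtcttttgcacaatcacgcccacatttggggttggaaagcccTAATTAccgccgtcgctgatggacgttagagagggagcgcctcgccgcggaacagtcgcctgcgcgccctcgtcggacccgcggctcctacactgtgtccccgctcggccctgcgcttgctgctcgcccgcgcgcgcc
Igfbp1 promoter (GRCr8, chr14:86261027-86261276, + strand): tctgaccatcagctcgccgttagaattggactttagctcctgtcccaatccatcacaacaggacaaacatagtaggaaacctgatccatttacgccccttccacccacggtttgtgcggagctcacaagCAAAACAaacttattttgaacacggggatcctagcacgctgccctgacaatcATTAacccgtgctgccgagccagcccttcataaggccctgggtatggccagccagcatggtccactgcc
The Wnt5a window held the TAAT core 3 times, with an overlapping pair of these inside a single run, and neither of the other motifs. The Igfbp1 window held CAAAACA once, starting at position -121 from the gene start. It held the TAAT core once, at -69, on the opposite strand as ATTA. Of the other separated members, whose windows are not printed, Igf2 had none of these motifs. The Bmp4 window held the TAAT core once and neither of the other motifs. TAAT was in 57.0% of all 33469 promoter windows of this length, and in 44.4% of the 54 windows of members, which covered 52 of the 59 genes. CAAAACA was in 5.46% of all windows and 5.56% of the members' windows, and TTAATTA in 2.75% and 1.85%. A match is a description of the letters and does not show binding.

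Wnt5a, a Wnt ligand best known for signalling without β-catenin, was the member with the smallest p. Its centred log2 ratios were 0.92, 0.037, 0.34, 0.92 and 0.38 in Nkx6.1 replicates 1 to 5, against -1.32, -0.67, -0.29, -0.037 and -1.60 in bGAL replicates 1 to 5. The groups did not overlap. The innermost pair, Nkx6.1 replicate 2 and bGAL replicate 4, were mirror images about 0 because each probe was centred on its median. The difference of 1.30 ± 0.34 (limma estimate ± SE, n = 5 per group), or 2.47-fold, had an unadjusted p of 0.0032 and an adjusted p of 0.28. Within array sets 1 and 2 it was 1.89 and 0.45. The other Wnt ligands measured were also higher on average in Nkx6.1 islets, 5 of 5 in all, with a median log2 difference of 0.80. With a term for the array set 4 of 5 were, and the Wnt5b difference turned to -0.30. Wnt4, which is expressed in islets and acts in epithelial differentiation, had a difference of 0.82 ± 0.65. It stood at 3.17 in Nkx6.1 replicate 2 and between -0.21 and 0.26 in the other Nkx6.1 samples, against -0.83 to 0.80 in bGAL samples. Without that sample the Wnt4 difference was 0.19. Wnt3, named after its values were seen, stood at 17.1 in Nkx6.1 replicate 1 and between -1.36 and -0.31 in the other 4, against -0.44 to 8.09 in bGAL samples, so its mean difference of 0.61 had an SE of 3.50. Within array set 2 the Wnt3 difference was -0.26. Wnt5b and Wnt7a differed by 0.80 ± 0.75 and 0.49 ± 0.42, and by -0.75 and -0.25 within array set 1.

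The Frizzled receptors gave smaller or unstable differences. Fzd1 had a log2 difference of -0.45 ± 0.35, and its value was 0 in 6 of 10 samples. Fzd2, also named after its values were seen, lay between -0.80 and 0.32 in Nkx6.1 samples and between -0.998 and 0.35 in bGAL samples. Fzd6, named likewise, ranged from -1.56 to 16.9 in Nkx6.1 samples and from -1.56 to 18.9 in bGAL samples. No difference between the groups could be read from values this far apart.

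The IGF axis held 9 members. Igf2, a fetal growth factor that is imprinted and is made in islets, was 0.0085, 3.07, 0.29, 0.60 and 0.67 in Nkx6.1 replicates 1 to 5, against -0.056, -0.078, -0.21, -0.0085 and -0.32 in bGAL replicates 1 to 5. The groups did not overlap, but Nkx6.1 replicate 1 and bGAL replicate 4 nearly met, as mirror images about 0. The log2 difference was 1.06 ± 0.51, or 2.09-fold (limma adjusted p = 0.54), and 0.53 without Nkx6.1 replicate 2. Within array sets 1 and 2 it was 0.17 and 1.17. Igf1, the growth hormone-dependent ligand, had the same value of -0.028 in 1 Nkx6.1 sample and 3 bGAL samples. It stood apart only in Nkx6.1 replicate 2, at 1.81, and in bGAL replicate 1, at 1.78, and its log2 difference was 0.067 ± 0.47. The receptor genes Igf1r, which carries the mitogenic signal, and Igf2r, which clears IGF2, had log2 differences of 0.39 ± 0.34 and 0.46 ± 0.25. Within array sets 1 and 2 the Igf1r values were -0.058 and -0.063, and those of Igf2r were 0.60 and -0.11.

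Igfbp1, a binding protein whose gene is suppressed by insulin in liver, was the binding protein with the smallest p. Its centred log2 ratios were -3.96, -1.26, -0.19, -0.68 and -0.93 in Nkx6.1 replicates 1 to 5, against 0.23, 0.53, 0.83, 0.34 and 0.19 in bGAL replicates 1 to 5. The groups did not overlap, and the innermost values, in Nkx6.1 replicate 3 and bGAL replicate 5, were mirror images about 0 because of the centring. The mean was -1.40 ± 1.48 in Nkx6.1 islets and 0.42 ± 0.26 in bGAL islets (SD, n = 5 per group). The difference of -1.83 ± 0.62 corresponds to a 3.55-fold lower ratio with the Nkx6.1 virus (limma unadjusted p = 0.015, adjusted p = 0.44). The difference was negative within both array sets, -4.41 in set 1 and -1.10 in set 2. Leaving out Nkx6.1 replicate 1, the lowest sample, gave -1.19 (adjusted p = 0.13).

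Igfbp2, the main IGF-binding protein of fetal tissues, had 2 probes. Their mean was 0.035, -0.10, -1.31, -1.01 and -1.01 in Nkx6.1 replicates 1 to 5, against 0.035, -0.0039, 0.035, 0.026 and 0.32 in bGAL replicates 1 to 5. Nkx6.1 replicate 1 shared its value with bGAL replicates 1 and 3, so the groups overlapped. On the probe measured in all 10 samples, Nkx6.1 replicates 2 to 5 lay between -1.27 and -1.01, against 0.0039 in bGAL replicate 4 of the same array set. The difference was -0.76 ± 0.28 for the mean of both probes (limma adjusted p = 0.48) and -1.06 for the complete probe alone (limma adjusted p = 0.27). Igfbp3, the main carrier of circulating IGF, differed by 0.016 ± 0.45, and Igfbp6, which prefers IGF2, by -0.88 ± 1.07. The sign of both turned with a term for the array set. Igfals, the acid-labile subunit of the circulating complex, and Igfbpl1 differed by 0.060 ± 0.17 and -0.046 ± 0.17. Fgfbp1, which releases FGFs from the matrix, differed by 0.75 ± 0.71, with -1.19 within array set 1 and 0.53 within array set 2.

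**Figure D2:**
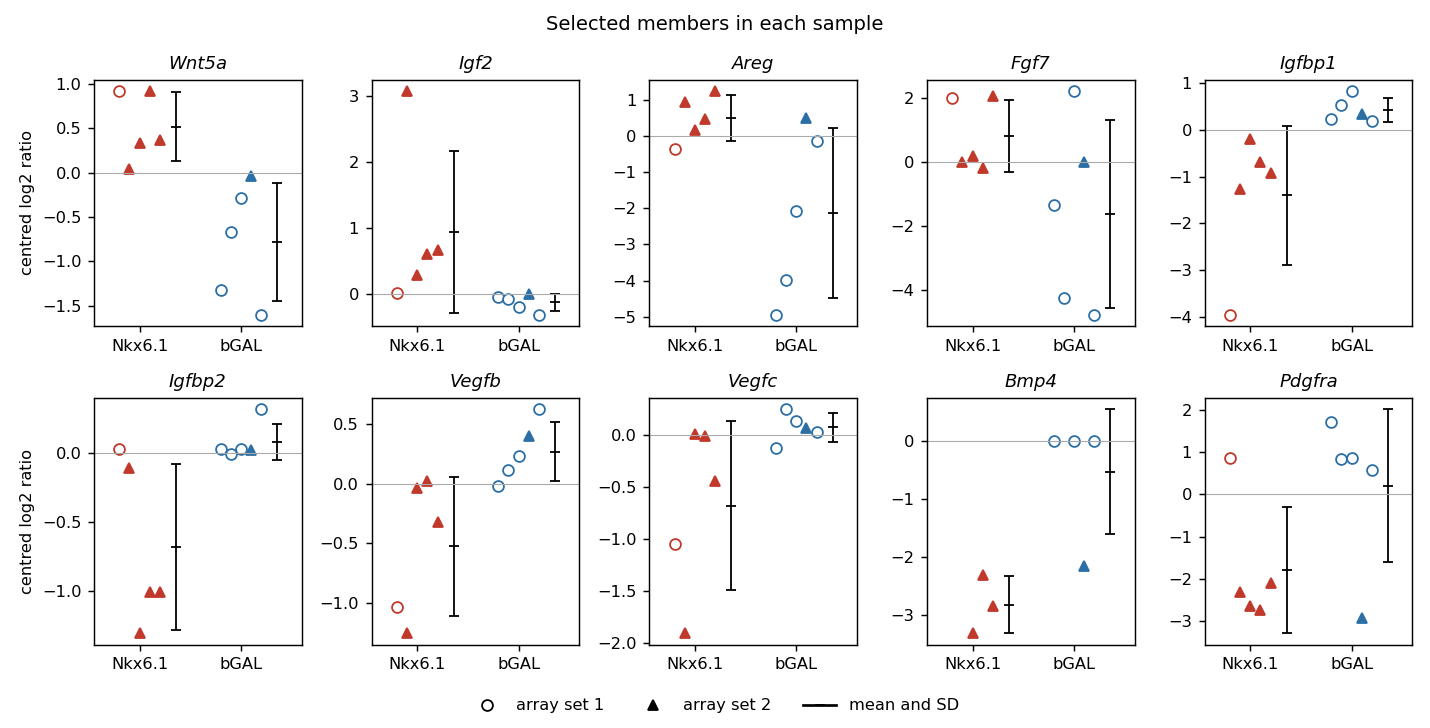
Centred log2 ratio of 10 members in each Nkx6.1 sample (red) and each bGAL sample (blue); open circles are array set 1, triangles array set 2, and bars the mean and SD. Wnt5a, Igf2 and Igfbp1 separate the groups, whereas in Bmp4 and Pdgfra bGAL replicate 4 stands at -2.15 and -2.93, beside the Nkx6.1 samples of the same array set.

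The EGF receptor ligands include amphiregulin, betacellulin, epiregulin, HB-EGF and TGF-α, and 4 of these 5 had positive differences. Areg, which encodes amphiregulin, was -0.36, 0.94, 0.15, 0.46 and 1.24 in Nkx6.1 replicates 1 to 5, against -4.94, -3.97, -2.07, 0.48 and -0.15 in bGAL replicates 1 to 5. The bGAL samples spread over more than 5 log2 units, and bGAL replicates 4 and 5 overlapped the Nkx6.1 samples. The difference was 2.62 ± 0.99, or 6.14-fold (limma unadjusted p = 0.025, adjusted p = 0.49), with 2.43 within array set 1 and 0.22 within array set 2. Btc, which encodes betacellulin, a mitogen first isolated from a β-cell tumour line, differed by 0.39 ± 0.25. It had one shared value of -0.073 in 1 Nkx6.1 sample and 4 bGAL samples, and 1.28 in Nkx6.1 replicate 2. Hbegf differed by 0.032 ± 0.50, with -2.30 in Nkx6.1 replicate 1 and between 0.068 and 0.40 in the other Nkx6.1 samples, against -0.75 to 0.14 in bGAL samples. Ereg and Tgfa differed by 0.29 ± 1.05 and -0.23 ± 0.29.

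All 5 VEGF and PDGF ligands had negative differences, with a median of -0.75. With a term for the array set 1 of 5 was positive and the median was -0.35. The median was -0.44 without Nkx6.1 replicate 2, and 0 and -0.73 within array sets 1 and 2. Vegfb, a ligand of the endothelial receptor Flt1, was -1.03, -1.26, -0.038, 0.020 and -0.32 in Nkx6.1 replicates 1 to 5, against -0.020, 0.12, 0.24, 0.40 and 0.63 in bGAL replicates 1 to 5. Only Nkx6.1 replicate 4 was above the lowest bGAL sample, bGAL replicate 1. The difference was -0.80 ± 0.29 (limma unadjusted p = 0.019, adjusted p = 0.47), and -1.27 and -0.80 within array sets 1 and 2. Vegfc, the main factor of lymphatic vessels, lay between -1.91 and 0.0073 in Nkx6.1 samples and between -0.12 and 0.24 in bGAL samples, with a difference of -0.75 ± 0.35 that was -0.44 without Nkx6.1 replicate 2. Vegfa, the factor that maintains the islet capillary bed, differed by -0.19 ± 0.26, and its 2 probes both had negative differences, -0.31 and -0.56, the second from 1 bGAL value. Pdgfa differed by -0.13 ± 0.20. Pdgfc, named after its values were seen, ranged from -3.13 to 1.99 in Nkx6.1 samples and from -1.17 to 2.93 in bGAL samples, a difference of -1.51 ± 1.07 that was -0.85 without Nkx6.1 replicate 2 and 0.65 within array set 1.

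Pdgfra, a PDGF receptor of mesenchymal cells, followed the array set. It was 0.85 in Nkx6.1 replicate 1 and between -2.74 and -2.11 in Nkx6.1 replicates 2 to 5, against -2.93 in bGAL replicate 4 and between 0.57 and 1.70 in the other bGAL samples. The difference of -2.0 ± 0.96 between the groups came to -0.14 in array set 1 alone and 0.48 in array set 2 alone. Pdgfrb, the receptor of pericytes, differed by -0.19 ± 0.27. Stellate and fibroblast markers, of which 11 of 14 were measured, Pdgfrb among them, averaged between 0.052 and 0.43 per Nkx6.1 sample and between -0.21 and 1.84 per bGAL sample. Of the 11, 5 were higher and 6 lower in Nkx6.1 islets, with a median difference of -0.16. In 2 of them, Rgs5 and Sparc, the groups did not overlap and Nkx6.1 was higher (18.2%, beside 1.76% of all genes).

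Of 9 FGF ligands measured, 7 had positive differences, with a median of 0.32 that was 0.088 without Nkx6.1 replicate 2. With a term for the array set 5 of 9 were positive. That term turned Fgf6, Fgf11 and Fgf21 to -0.29, -0.01 and -0.13, and Fgf13 to 0.18. Fgf7, a stromal factor that acts on pancreatic epithelium, was 2.00, 0.0072, 0.18, -0.19 and 2.06 in Nkx6.1 replicates 1 to 5, against -1.34, -4.25, 2.22, -0.0072 and -4.76 in bGAL replicates 1 to 5. Its bGAL values spanned the whole range of the Nkx6.1 values, and the difference was 2.44 ± 1.27 (limma adjusted p = 0.54). Fgf1, an FGF that binds every FGF receptor, differed by 0.33 ± 0.24, with -0.20 within array set 1 and 0.37 within array set 2. Fgf11 and Fgf13 were counted as ligands by symbol, although they encode FGF homologous factors that stay inside the cell. The other FGF ligands (Fgf4, Fgf6, Fgf9, Fgf16 and Fgf21) and these factors had differences from -0.84 for Fgf13 to 0.76 for Fgf6. Fgf4 stood at 3.91 in Nkx6.1 replicate 2 and between -0.22 and 0.33 in the other Nkx6.1 samples, against -0.26 to 0.45 in bGAL samples. Of the FGF receptors, Fgfr1 and Fgfr3 differed by 0.14 ± 0.29 and 0.25 ± 0.25. Fgfrl1, a receptor that lacks a kinase domain, was 0.12 in Nkx6.1 replicates 1 and 2 and between -1.81 and -1.49 in Nkx6.1 replicates 3 to 5, against -0.64 in bGAL replicate 4 and -0.12 or 0.12 in the other bGAL samples. Hgf, the ligand of the Met receptor and a mitogen of β cells, differed by 0.9998 ± 0.69, with 2.40 within array set 1 and -0.31 within array set 2.

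In the TGF-β superfamily, 4 of 9 members had positive and 5 negative differences. Bmp4, a ligand of the BMP receptors expressed in adult β cells, had no value in Nkx6.1 replicates 1 and 2 and in bGAL replicate 2. It was -3.30, -2.32 and -2.84 in Nkx6.1 replicates 3 to 5, against -2.15 in bGAL replicate 4 and 0 in bGAL replicates 1, 3 and 5. The separation of the groups therefore rested on 3 against 4 values and on the small gap between Nkx6.1 replicate 4 and bGAL replicate 4. The difference of -2.28 ± 0.61 (limma unadjusted p = 0.0076, adjusted p = 0.37) was -0.67 within array set 2, and array set 1 held no Nkx6.1 value. Bmp2 differed by -0.54 ± 0.30 and its receptor gene Bmpr1a by 0.097 ± 0.25. Bmp3 and Bmp15 differed by -0.27 ± 0.33 and 0.12 ± 0.33.

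Tgfbr2, the ligand-binding receptor of TGF-β, had a mean of 2 probes between -1.55 and 1.28 in Nkx6.1 samples and between -0.76 and 3.40 in bGAL samples. The difference of -1.94 ± 0.82 (limma unadjusted p = 0.041, adjusted p = 0.51) was -1.14 on the probe with 10 values, and the other probe had 1 bGAL value. Tgfb1, the main isoform, differed by 0.27 ± 0.39, and Tgfb2 by -0.75 ± 0.62. Tgfb2 stood at -3.22 in Nkx6.1 replicate 2 and between -0.086 and 0.064 in the other Nkx6.1 samples, against -0.46 to 0.76 in bGAL samples. Inhbe, an activin subunit best known from liver and named after its values were seen, differed by 1.02 ± 0.60. Ccn2, given as Ctgf in the array annotation, is a matricellular protein induced by TGF-β, and it differed by -0.055 ± 0.17, with a range of -0.20 to 0.45 in Nkx6.1 samples and -0.11 to 0.30 in bGAL samples.

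**Figure D3:**
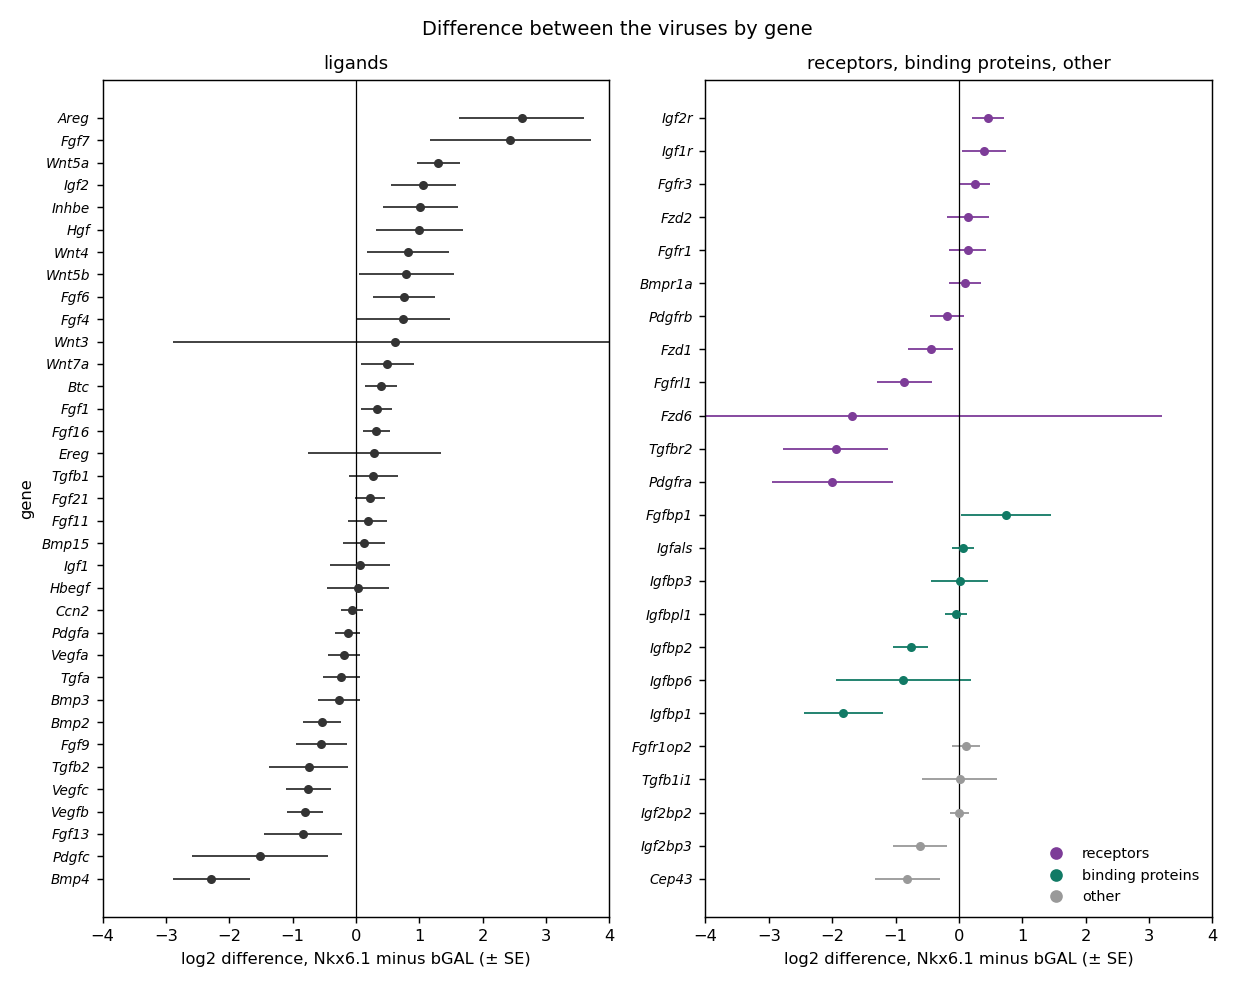
Log2 difference, Nkx6.1 minus bGAL, with its SE for each of the 35 ligands (left) and for 12 receptors, 7 binding proteins and 5 other genes (right). The ligands have a median of 0.22, and 22 of 35 lie above 0; the SE bars of Wnt3 and Fzd6 run past the axis, which ends at -4 and 4.

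Ligands were set against receptors and binding proteins by their counts and medians. Of 35 ligands, 22 were higher and 13 lower in Nkx6.1 islets, with a median log2 difference of 0.22. Of the 19 receptors and binding proteins, 9 were higher and 10 lower, with a median of -0.046. Over all 9974 genes, 4538 were higher and the median was -0.052. The median of the ligands was -0.033 without Nkx6.1 replicate 2 and 0.041 with a term for the array set. The corresponding medians of receptors and binding proteins together were -0.084 and -0.050. The sign of the ligands' median thus turned when 1 sample was left out.

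The array set was largely aligned with the group, and it bore on many members. Of the 59, 28 had a probe with the same value, to 4 decimals, in 3 or more samples, and such values carry no order. In 12 of 58 members with a difference in both sets, the difference within array set 1 was within 0.001 of 0. Among the 46 others, 18 had the same sign within both sets (39.1%), 8 higher and 10 lower, against 58.3% over all genes with both. Among these were Wnt5a, Igf2, Areg, Fgf7, Wnt4 and Inhbe, which were higher in both sets, and Igfbp1, Igfbp2, Vegfb, Vegfc, Tgfb2 and Tgfbr2, which were lower in both. For Wnt5a, Igf2 and Igfbp1 the shared sign follows from groups that do not overlap and adds nothing to it. The Tgfbr2 probe with 10 values differed by 0.31 in array set 2. With a term for the array set, limma called 4 of 59 members at an unadjusted p under 0.05, beside 506 of 9974 genes. The 4 were Igfbp1 (-2.75 ± 0.63), Vegfb (-1.04 ± 0.35), Wnt5a (1.17 ± 0.43) and Wnt3 (6.97 ± 2.95). Wnt3 stood at 17.1 in Nkx6.1 replicate 1 and differed by -0.26 within array set 2. The smallest limma adjusted p of the 4 was 0.58, for Igfbp1. That term turned the sign of 24 of 59 members (40.7%), beside 23.0% of all genes, and leaving out Nkx6.1 replicate 2 turned the sign of 8 members (13.6%), beside 15.5%.

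**Figure D4:**
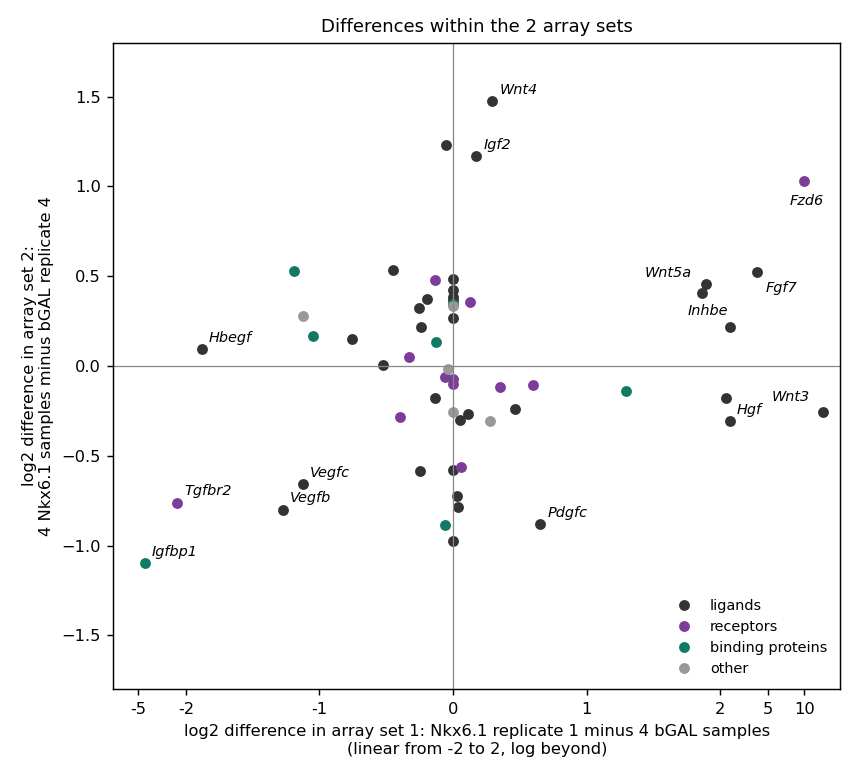
Log2 difference within array set 1 (x axis, linear from -2 to 2 and logarithmic beyond) against that within array set 2 (y axis) for the 58 members with both. Igfbp1, Tgfbr2, Vegfb and Vegfc lie at the lower left and Wnt5a, Fgf7, Inhbe, Fzd6, Igf2 and Wnt4 at the upper right, while points on the vertical line at 0 had no difference within array set 1.

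Other genes of these pathways were described from 4 lists, and none of their 71 measured genes passed the threshold. The lists mix receptors, ligands, secreted antagonists and genes that act downstream of the receptors. In the BMP and TGF-β list, 14 of 23 measured genes were higher, with a median of 0.17 (0.091 with a term for the array set). Id1, a direct target of BMP receptors, lay between 0.34 and 1.34 in Nkx6.1 samples and between -1.26 and -0.34 in bGAL samples. Its difference was 1.27 ± 0.25 (limma adjusted p = 0.13), with 1.16 within array set 1 and 1.17 within array set 2. Grem1, a BMP antagonist, differed by -0.94 ± 0.32, with 0 within array set 1 and -0.54 within array set 2. In the FGF and receptor tyrosine kinase list, 7 of 16 genes were higher, with a median of -0.13, which turned to 0.0061 with a term for the array set and to 0.040 without Nkx6.1 replicate 2. Etv4, a transcription factor induced by FGF signalling, lay between 0.12 and 0.92 in Nkx6.1 samples and between -5.61 and -0.12 in bGAL samples, a difference of 2.89 ± 0.92 (limma adjusted p = 0.42), or 3.87 and 0.53 within array sets 1 and 2. Egfr, the receptor of the EGF ligands, ranged from -6.95 to 10.3 in Nkx6.1 samples and from -2.77 to 7.15 in bGAL samples, so no difference could be read.

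In the Wnt list, 9 of 20 genes were higher, with a median of -0.0092, and 13 were with a term for the array set (median 0.072). Gsk3b, a kinase of the β-catenin destruction complex, differed by 0.75 ± 0.23 (limma adjusted p = 0.38), with 0.38 and 0.72 within array sets 1 and 2. Dkk1, a secreted Wnt antagonist, differed by -0.68 ± 0.42 between the groups, but by 0 and 0.033 within the sets. In the IGF list, 5 of 12 genes were higher, with a median of -0.29, and 7 were with a term for the array set (median 0.085). Stc1, a secreted glycoprotein that inhibits the protease freeing IGF from its binding proteins, differed by 1.11 ± 0.42 (limma adjusted p = 0.49), with 0 and 1.16 within array sets 1 and 2. Mtor, the growth kinase, differed by -0.46 ± 0.24, with -0.97 and 0.0092 within them. These medians stood beside a median of -0.052 over all genes.

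Markers of other cell types were measured in the same samples, and none passed the threshold. All 11 measured markers of macrophages and other leukocytes, of 16 listed, were lower in Nkx6.1 islets, with a median difference of -0.99. Fitting the array set as well made 2 of these 11 higher and moved their median to -0.47. Within array sets 1 and 2 the median was -0.67 and -0.50. The mean of these markers per sample lay between -0.78 and -0.41 in Nkx6.1 samples and between 0.20 and 0.85 in bGAL samples, without overlap. Taken singly, the groups overlapped in every marker (0 of 11 lower without overlap, beside 1.88% of all genes). How often the mean of a list separates the groups was not computed. Only 5 of 12 endothelial markers were measured, and their mean lay between -1.43 and 0.099 in Nkx6.1 samples and between -1.43 and 7.20 in bGAL samples, which rested on extreme values of Emcn (up to 20.5) and Tie1 (up to 16.6), named after their values were seen. Of 10 endocrine markers 8 were higher, with a median of 0.34 that was -0.0057 without Nkx6.1 replicate 2, where they averaged 2.08. Duct and acinar markers had median differences of 0.31 and 0.68, and 0.26 and 0.36 without that sample. The part of these markers in the differences of growth factor genes was not tested.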

How the data were processed

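RNA of 10 islet samples was measured on Operon rat 27K arrays with 2 colours, with islet RNA (500 ng, amplified) in Cy5 and a common rat reference RNA in Cy3, per the labels. The deposited log2 ratios came as one table; the sources used here do not give how background and dyes were treated. The median was 0 for all 17744 probes that had 10 values (tolerance 0.001). The base and the direction of the log2 ratio, which neither the labels nor the deposited table state, were inferred. Among probes sharing 1 value in 3 or more samples, the array set 2 mean lay above it for 14 of 15 neuroendocrine and 1 of 10 DNA replication and mitosis probes, and for 3973 of all 7209, so the ratio is likely islet over reference. What set the shared values was not tested, and array set 2 was mostly Nkx6.1 samples, so the direction stays an inference. Pearson's r between arrays was -0.11 to 0.36 across probes.

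Of 26962 probes besides 22 controls, 15807 had 1 symbol in GEO's platform annotation, 0 had several and 11155 had none. Symbols were updated through the GRCr8 RefSeq gene table (12034 current, 3713 updated, 60 kept). Probes of a gene were averaged, and limma 3.58.1 (lmFit and eBayes, two-sided, R 4.3.3) was fitted to the 9974 genes with at least 3 values per group, with Benjamini-Hochberg adjustment over all of them. The fit was tested on simulated data of 9974 genes (8 false calls). Promoter sequences are RefSeq's, build GRCr8. Tables were made with pandas 2.3.3 and numpy 2.4.6 in Python 3.11.15, and plots with matplotlib 3.10.9. Named genes were the 8 ligands, 8 receptors and 6 binding proteins with the smallest p, a fixed set of well-known members, and the 2 genes with the smallest p of each pathway list. Wnt3, Wnt5b, Wnt7a, Fzd2, Fzd6, Fgfr1, Bmpr1a, Bmp3, Bmp15, Fgf4, Fgf6, Fgf11, Fgf13, Fgf21, Pdgfc and Inhbe were added after their values were seen. Alternatives were another normalisation, array weights, an array set term, a replicate block, other filters and probe choices, and leaving out each sample. The members and lists were chosen with earlier results of these data known.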

Additional observations from a re-analysis of the deposited data

Results flagged for a closer look

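In 21 of 71 groups examined among the named members, 1 sample stood apart from the rest of its group by a gap that was large against the group's range. That was 29.6% of the groups, beside 25.5% over all genes tested (5017 of 19639 groups), where Nkx6.1 replicate 2 was the sample apart in 1811 and bGAL replicate 4 in 1865. Where the other samples of a group shared one value, any sample that differed counted as apart, so no rate for chance is given. Nkx6.1 replicate 2 accounted for 5: Igf2 at 3.07 (others 0.0085 to 0.67), Wnt4 at 3.17 (others -0.21 to 0.26), Igf1 at 1.81 (others -0.028 to 0.11), Btc at 1.28 (others -0.073 to 0.24) and Tgfb2 at -3.22 (others -0.086 to 0.064). Nkx6.1 replicate 1 accounted for 4: Igfbp1 at -3.96 (others -1.26 to -0.19), Hbegf at -2.30 (others 0.068 to 0.40), Igfbp6 at 2.80 (others -0.82 to 0.20) and Pdgfra at 0.85 (others -2.74 to -2.11).

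In the bGAL group, replicate 4, the only bGAL sample of array set 2, accounted for 8. It stood at -2.15 for Bmp4, -0.65 for Fzd1, -0.54 for Igfbpl1, -0.56 for Pdgfa, -0.96 for Tgfa, 0.073 for Btc and 0.55 for Fgfr3, where the other bGAL samples with a value shared one value. For Pdgfra it stood at -2.93, against 0.57 to 1.70 in the other bGAL samples. Replicate 5 accounted for 3, at 0.32 for Igfbp2, 0.46 for Igfals and 1.29 for Pdgfrb, and replicate 1 for 1, at 1.78 for Igf1.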

How the results depend on the processing

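No member passed in the fits run, except 5 with array weights: Areg, Bmp4, Fgfrl1, Igfbp2 and Wnt5a. Over all genes, 430 passed the threshold with array weights and 28 with quantile normalisation. Fitting the array set left 3 genes past it, and the replicate block left 0. Between 2 and 36 genes passed when 1 sample was left out (36 without Nkx6.1 replicate 2). In the replicate block fit, 8 of 59 members had an unadjusted limma p under 0.05, beside 811 of 9972 genes. Same-numbered samples correlated with r of 0.17 and 0.18 for numbers 1 and 4, which each lie in 1 array set, and -0.0999 to -0.013 for the others, which span both sets. The numbers were therefore not taken as pairs, and pairing and array set cannot be told apart here. The sign of 12 of 36 named members held in all alternatives run (15 for Bmp4), including Wnt5a (0.45 to 1.89), Igfbp1 (-4.41 to -1.10), Igf2 (0.17 to 1.29), Vegfb (-1.27 to -0.40) and Areg (0.22 to 3.51). In Wnt5a, Igfbp1, Igf2 and Bmp4 the groups did not overlap, which fixes the sign within an array set and with 1 sample left out. The share of all genes whose sign held in all alternatives was not computed. Btc and Fzd1 were at 0 within array set 1 and turned nowhere. The sign of the other 22 turned at least once, and the cause was not tested.

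With the array set term the difference was -0.33 for Fgfbp1, -0.050 for Fgfr3, -0.89 for Hbegf, -0.060 for Igf1r, -0.44 for Igfbp3, 0.58 for Igfbp6, 0.17 for Igfbpl1, 0.13 for Pdgfa, 0.17 for Pdgfra, 0.24 for Tgfa and -0.26 for Tgfb1. Within array set 1 it was 0.115 for Bmp2, -0.20 for Fgf1, -1.19 for Fgfbp1, 0.062 for Fgfrl1, -1.88 for Hbegf, -0.45 for Igf1, -0.058 for Igf1r, -0.13 for Igfals, -1.05 for Igfbp3, 1.30 for Igfbp6, -0.52 for Tgfb1 and 0.029 for Vegfa. Within array set 2 it was -0.18 for Ereg, -0.10 for Fgfr3, -0.31 for Hgf, -0.063 for Igf1r, -0.11 for Igf2r, 0.35 for Igfbpl1, 0.27 for Pdgfa, 0.48 for Pdgfra, 0.052 for Pdgfrb and 0.49 for Tgfa. With array weights it was -0.41 for Ereg, -0.25 for Igf1 and 0.042 for Pdgfrb, and with quantile normalisation -0.054 for Igf1. Leaving out 1 sample gave -0.16 to 0.0018 for Ccn2, -0.49 to 0.85 for Ereg, -0.14 to 0.54 for Hbegf, -0.29 to 0.43 for Igf1, -0.019 to 0.16 for Igfals, -0.33 to 0.29 for Igfbp3, -0.15 to 0.0035 for Igfbpl1, -0.26 to 0.075 for Pdgfrb and -0.036 to 0.51 for Tgfb1.

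The median of all members (0.060) was -0.054 with array weights, -0.015 with the array set term, 0.115 without probes sharing a value, 0 and -0.014 within array sets 1 and 2, and -0.054 to 0.10 with 1 sample left out. That of ligands was 0.041 with the array set term, 0 within array set 1 and -0.033 to 0.34 with 1 sample left out. That of receptors was 0.12 with quantile normalisation, 0.14 without probes sharing a value, 0.097 when probes reaching 8 in size were dropped and -0.15 to 0.20 with 1 sample left out. That of binding proteins was -0.17 with array weights, -0.33 with the array set term, -0.43 without probes sharing a value, 0.13 within array set 2 and -0.33 to -0.019 with 1 sample left out. Genes with no other probe gave no value without probes sharing a value, Bmp4 gave none within array set 1, and counts past the threshold were not made within single array sets. Values shared by several samples limit what 28 of the 59 members can show, and what set them was not tested.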
